A study of Mus musculus with 3143 samples.

Results

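The 8 genes described here carry out antigen presentation by major histocompatibility complex (MHC) class II: Cd74, H2-Aa, H2-Ab1, H2-Eb1, H2-DMa, H2-DMb1, Ciita and Ctss. They were taken by symbol from a count table of 46517 gene names, and all 8 were found. The table covers 3143 single cells of the glomerular fraction of kidneys of adult C57BL/6 mice, 1798 cells whose treatment label is IgAN (IgA nephropathy, a glomerular disease with deposits of immunoglobulin A) and 1345 cells labelled Control. How IgAN was produced, and how many mice gave the cells, is not given in the sources used here. The tissue was digested with collagenase, pronase and DNase, live cells were picked by a CellTracker dye and sorted into 384-well plates, and each cell was sequenced by Smart-seq2, which reads whole transcripts and uses no molecular identifiers. The IgAN cells fill 6 plates (313, 315, 316, 318, 322 and 325) and the Control cells 4 (314, 317, 321 and 326). Each plate holds cells of 1 group only: plate effects and group effects cannot be told apart here, nor does a plate stand for an animal.

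Class II molecules show peptides from internalised proteins to CD4+ T cells. The alpha and beta chains (H2-Aa with H2-Ab1 form I-A, and H2-Eb1 is the beta chain of I-E) are assembled on the invariant chain Cd74, the protease cathepsin S (Ctss) trims that chain in endosomes, and the H2-DM dimer (H2-DMa with H2-DMb1) exchanges its last fragment for peptide. Ciita is the coactivator that switches these genes on, constitutively in B cells and dendritic cells and after interferon gamma in many other cells. C57BL/6 mice carry a deletion in the I-E alpha gene, so their H2-Eb1 transcript has no I-E partner.

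In GENCODE vM21 on build GRCm38, 5 of the members lie within the MHC on chromosome 17: H2-DMa (chr17:34119541-34139101), H2-DMb1 (chr17:34153072-34160230), H2-Ab1 (chr17:34257689-34269419), H2-Aa (chr17:34282744-34287823, minus strand) and H2-Eb1 (chr17:34305867-34316674). Ciita lies at chr16:10480059-10528418 and Ctss at chr3:95526786-95556403. Class II promoters share an X box, bound by the RFX complex, and downstream of it a Y box, bound by NF-Y, onto which Ciita docks. RefSeq's GRCm38.p6 promoter table matched 5 of the 8 members (Cd74, H2-Ab1 and Ciita were not in it). The letters searched, chosen after the sequences had been seen, were CTNGNAAC for the core of the X box, GATTGG for the Y box and TGACGTCA, a cyclic AMP response element, on both strands. The 120 bases before the start are shown for an alpha chain, a beta chain and, as a contrast, the protease, with the matches in capitals (CCAATC is GATTGG read on the other strand). The H2-Aa window is chr17:34287824-34287943 (minus strand), that of H2-Eb1 chr17:34305747-34305866 (plus strand) and that of Ctss chr3:95526666-95526785 (plus strand).
H2-Aa: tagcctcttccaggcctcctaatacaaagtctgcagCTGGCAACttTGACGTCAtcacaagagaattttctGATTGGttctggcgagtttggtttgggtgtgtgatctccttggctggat
H2-Eb1: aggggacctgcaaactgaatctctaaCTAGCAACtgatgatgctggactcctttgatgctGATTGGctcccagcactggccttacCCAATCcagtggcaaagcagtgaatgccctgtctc
Ctss: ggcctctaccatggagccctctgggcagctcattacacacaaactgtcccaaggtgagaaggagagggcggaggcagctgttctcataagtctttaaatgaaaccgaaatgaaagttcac

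CTNGNAAC began 84 bases before the start of H2-Aa and GATTGG 49 bases before it, a spacing of 35 bases. In H2-Eb1 the same letters began 94 and 60 bases before the start, 34 bases apart. H2-DMb1 held CTAGTAAC and GATTGG 97 and 62 bases before its RefSeq start, again 35 bases apart. Over all 32851 RefSeq windows of 300 bases, CTNGNAAC occurred in 13.2%, GATTGG in 16.1% and TGACGTCA in 1.79%. The ordered pair on 1 strand, with 30 to 36 bases between the starts, occurred in 10 windows (0.0304%). Those 10 were H2-Aa, H2-Eb1, H2-DMb1, H2-Ob, 1700048F04Rik, BC051142, Eef1aknmt, Ift74, Plk1 and Prdm4. The pair was not in the windows of H2-DMa and Ctss. A match describes letters only and is no evidence of binding.

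Cells were sorted into classes by summed marker counts that include no class II gene, and each class is named as cells that resemble it. The IgAN and Control cells included 28 and 114 B-like, 170 and 100 myeloid-like, 1125 and 621 endothelial-like, 42 and 146 podocyte-like and 145 and 129 tubule-like cells. B-like cells carried a median of 88.9% of their 9 markers at 10 reads per 1000000 (CPM) or more, myeloid-like cells 70.0% of 10, endothelial-like cells 91.7% of 12 and podocyte-like cells 100% of 8. Reads per cell ran from 50365 to 1135415, with medians of 231222 in IgAN and 241543 in Control. Reads of other classes' defining genes were widespread. The endothelial gene Emcn had a read in 98.4% to 100% of B-like, myeloid-like, podocyte-like and tubule-like cells. The B-cell gene Cd79a had a read in 7.14% to 23.5% of the non-B classes in IgAN and in 70.4% to 77.4% in Control, at median cell depths of 186931 to 290916 reads. A low class II level in a class therefore stands beside a like spread of other cells' transcripts. This spread was larger in Control for Cd79a but larger in IgAN for Emcn. The median cell level of Emcn was 120 against 60.7 CPM in B-like cells (IgAN against Control). It was 108 against 49.3 in myeloid-like, 55.6 against 41.7 in podocyte-like and 126 against 49.9 in tubule-like cells. The part of this spread in the class II values was not tested.

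Levels are CPM of the summed reads of a class, with exact Poisson intervals at 95% that cover counting error only. The labels name no animals, so each group counts as 1 sample and no test was made. In place of a test, a gene met the size rule when the 2 groups differed by at least 1 on the log2(CPM + 1) scale and the plates of the groups did not overlap, using plates that held 10 or more cells of the class (5 or more for B-like cells). The rule was read only for genes with at least 10 CPM, and a read in at least 10% of cells, in 1 group.

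B-like cells held the full set. In Control B-like cells, Cd74 stood at 6259 CPM (6226 to 6292), H2-Eb1 at 3091, H2-Ab1 at 2443, H2-Aa at 2286, Ctss at 710 (699 to 721), H2-DMa at 697, Ciita at 323 and H2-DMb1 at 237. Per kilobase of transcript the order was Cd74 (4439 CPM per kb), H2-Aa (2026), H2-Ab1 (2016), H2-Eb1 (1852), Ctss (524), H2-DMa (420), H2-DMb1 (169) and Ciita (53.8). The 3 chains thus lay close together, below their chaperone and far above the editor and the coactivator.

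In IgAN B-like cells Cd74 stood at 6600 CPM (6533 to 6667), H2-Eb1 at 3548, H2-Ab1 at 2843, H2-Aa at 3021, H2-DMa at 1149 and H2-DMb1 at 260. Across the IgAN plates with at least 5 such cells, Cd74 was 8162 (plate 313), 9004 (plate 316) and 5786 CPM (plate 318). The Control plates 314, 317, 321 and 326 gave 5971, 6171, 6607 and 6145 CPM for Cd74, inside the IgAN range. All 8 members were nominally higher in IgAN, with a median log2 difference of 0.31 against -0.10 over all genes measured in B-like cells, and 0 of 8 met the size rule, which 8.93% of genes did (1.31% as higher and 7.62% as lower). Ctss came nearest to separating: 1154, 882 and 1203 CPM on IgAN plates 313, 316 and 318 against 664, 699, 696 and 750 CPM on the Control plates in order. Those plates did not overlap, but the log2 difference of 0.54 was below the limit.

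The 3 chains were found together in single B-like cells. H2-Aa, H2-Ab1 and H2-Eb1 were each at 100 CPM or more in 26 of 28 IgAN and 92 of 114 Control B-like cells. H2-Ab1 and H2-Eb1 varied most closely together, with a Pearson r of 0.95 on log2(CPM + 1) over 142 cells, which share plates and span a range of depths. Ciita was different: a read was found in 50.0% of IgAN (30.6% to 69.4%, exact binomial interval) and 38.6% of Control B-like cells (29.6% to 48.2%), and in 42.9% and 32.5% once every cell was thinned to 50000 reads. Its median cell level was 604 CPM in the 58 cells with a read. Those 58 cells and the 84 cells without one had near-equal medians of Cd74, at 7126 and 7233 CPM, and of H2-Ab1, at 3059 and 2834 CPM. Class II levels of B-like cells thus differed little with the presence of a Ciita read.

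In B-like cells the Cd74 level went down with the depth of a cell. With B-like cells cut into 4 equal bins from the shallowest to the deepest, the median Cd74 level was 9355, 8194, 6987 and 5317 CPM, while its median reads were 1084, 1254, 1426 and 1582.5. Reads thus grew more slowly than depth, and H2-Ab1 followed with medians of 3827, 3288, 3058 and 2166 CPM. The highest count in any cell was 1.39 reads per exon base for Cd74 and 0.978 for Ctss. There were 31163 genes with at least 500 exon bases. Among them, with the mitochondrially encoded genes left out, no value exceeded 1.67 reads per base, and the cause was not tested. Other members and classes differed: the B-like medians of H2-DMa were higher in deeper cells, at 198 CPM in the first bin and 881, 780 and 723 in the others, and the myeloid-like medians of Cd74 were 232, 444, 692 and 1306 CPM.

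**Figure D1:**
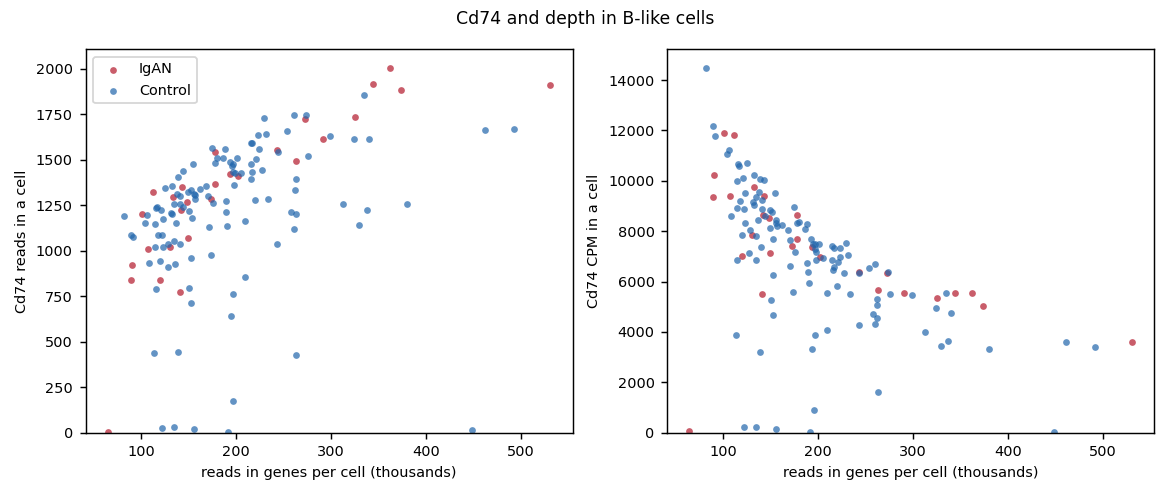
Cd74 reads (left) and Cd74 CPM (right) of single B-like cells against the reads of the cell (axis in units of 1000 reads, both axes linear), with IgAN cells red and Control cells blue. Median reads grow from 1084 to 1582.5 across the 4 depth bins while median CPM drops from 9355 to 5317, and both groups lie on the same band.

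**Figure D2:**
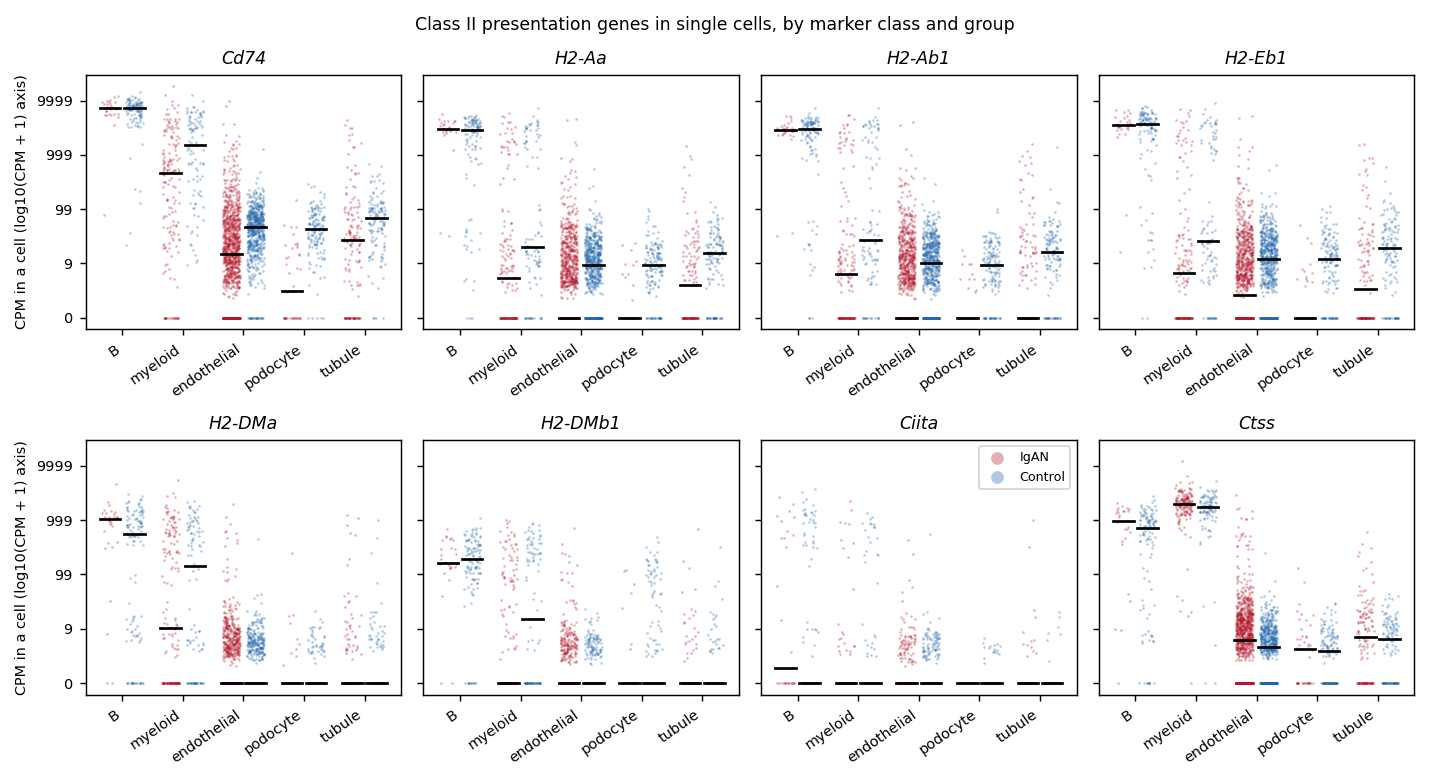
Level of each member in single cells by class, on a log10(CPM + 1) axis, each point being 1 cell (IgAN red, Control blue) and each black bar the median cell. B-like cells are high for every member except Ciita, which has a read in 50.0% of IgAN and 38.6% of Control B-like cells, and myeloid-like cells spread from 0 to the B-like level for Cd74 and the chains.

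Myeloid-like cells (markers Lyz2, Csf1r, Mpeg1 and others) were lower in IgAN in 7 of the 8 members. In IgAN Cd74 was 1428 CPM (1417 to 1440), and the Control level was 2554 (2535 to 2572). Over the 6 IgAN plates Cd74 ran from 1110 through a median of 1355 to 2177 CPM, and the Control plates 314, 317, 321 and 326 gave 3263, 2121, 2769 and 2256. The groups met only where IgAN plate 325, at 2177, passed Control plate 317.

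The chains showed the same arrangement. H2-Ab1 was 483 CPM in IgAN, with plates from 261 through a median of 490 to 812 CPM, and 1036 in Control, with 1457, 839, 1148 and 793 CPM on plates 314, 317, 321 and 326. H2-Aa stood at 489 against 1043 CPM and H2-Eb1 at 557 against 1160 CPM. The log2 differences of H2-Ab1, H2-Aa and H2-Eb1 were -1.10, -1.09 and -1.06, with 1 IgAN plate (325) overlapping Control for each.

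The 2 H2-DM chains differed less. H2-DMa was 385 and 504 CPM in IgAN and Control, and H2-DMb1 115 and 193. Ciita was 69.7 and 137 CPM, a log2 difference of -0.97 beside -0.84 for Cd74, with 2 IgAN plates at or below 1 CPM (313 and 318) and a highest IgAN plate of 173. Ctss, which macrophages and monocytes also use for general endosomal proteolysis, was the exception at 2041 in IgAN and 1760 CPM in Control, with overlapping plates. The median of the 8 log2 differences was -0.90 against 0.04 over all genes measured in the class. None of the 8 met the size rule, which 1.17% of genes did (0.755% as higher and 0.414% as lower). Without plate 325, H2-Aa, H2-Ab1 and H2-Eb1 met it as lower in IgAN. Without plate 322 H2-DMb1 did, and without plate 326 H2-Ab1 did. More of all genes in the class also met the rule with any 1 plate left out.

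Within the myeloid-like cells, subsets told apart by their own markers differed strongly in level. In Control, Cd74 per subset was 6724 CPM in 6 macrophage-like, 4686 in 19 dendritic-like, 1714 in 26 classical monocyte-like and 1543 in 48 non-classical monocyte-like cells. H2-Ab1 followed the same order at 3458, 2561, 541 and 286 CPM. In IgAN, H2-Ab1 was 920 CPM in 13 macrophage-like, 1789 in 15 dendritic-like, 463 in 35 classical and 78.5 in 103 non-classical monocyte-like cells. Dendritic cells are the main presenting cells for naive T cells, and all 3 chains were at 100 CPM or more in 10 of 15 IgAN and 18 of 19 Control dendritic-like cells. Non-classical monocyte-like cells, patrolling cells of the vessel wall, had them in 4 of 103 and 4 of 48. They made up 103 of the 170 IgAN but 48 of the 100 Control myeloid-like cells, so the subsets enter the 2 totals in different shares.

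In non-classical monocyte-like cells Cd74 was 587 CPM in IgAN and 1543 in Control. Plates with at least 10 of these cells gave 758, 473, 582, 439 and 1146 CPM for Cd74 in IgAN (313, 315, 316, 318 and 325) against 1636 and 2053 in Control (314 and 317). The groups did not overlap, and the log2 difference was -1.39. H2-Ab1 gave 111, 8.58, 202, 6.79 and 259 CPM on the same IgAN plates against 332 and 480 in Control. Cd74, H2-Aa, H2-Ab1 and H2-DMb1 met the size rule as lower in IgAN, 4 of 8 against 3.36% of genes, while Ctss stood at 2224 against 1977 CPM. The Control side rests on 2 plates, and without plate 317 only Cd74 and H2-Ab1 met the rule, with Control H2-Ab1 at 178 CPM, H2-Aa at 158 and H2-Eb1 at 159. H2-Eb1 met it too without plate 314 or 325, and Ciita without plate 316. The share of all genes past the rule was not counted with a plate left out, so these calls have no background beside them. Ciita, at 11.8 CPM in IgAN and 13.7 in Control, came in IgAN almost only from plate 316 (0.432 CPM without it). The 2 Control plates with fewer than 10 such cells were lower, with H2-Ab1 at 25.8 (plate 321, 7 cells) and 15.3 CPM (plate 326, 9 cells). A single cell of this subset usually held little: the median cell had 2.86 CPM of H2-Ab1 in IgAN and 12.3 in Control, and 6.80% and 10.4% of cells reached 100 CPM.

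**Figure D3:**
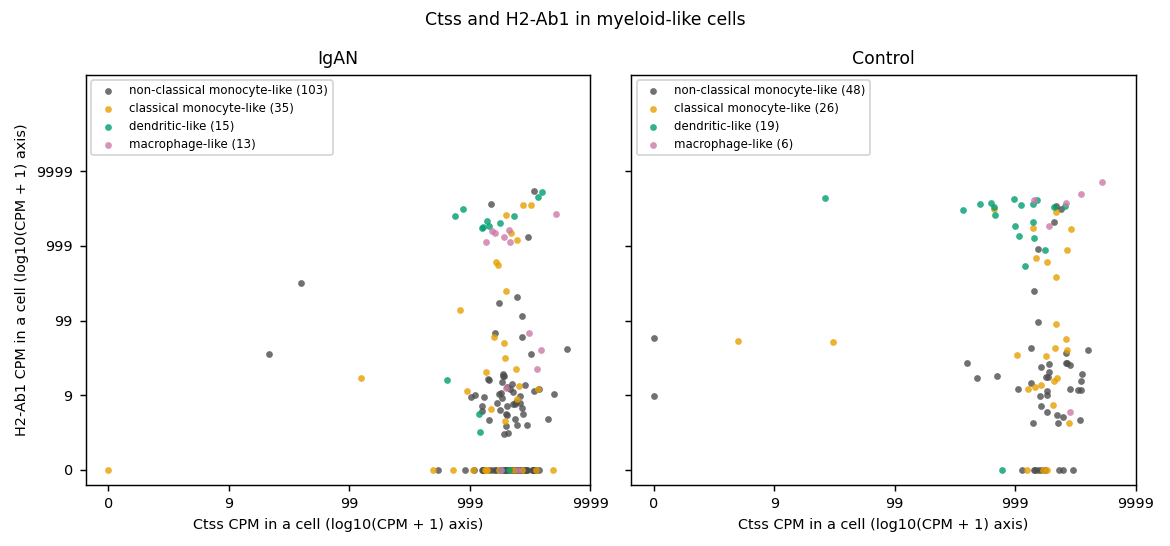
H2-Ab1 against Ctss in single myeloid-like cells, both on log10(CPM + 1) axes, with IgAN at the left, Control at the right and the 4 subsets in colours. Nearly all cells lie in a narrow band of Ctss, while H2-Ab1 varies widely, with most dendritic-like cells at the top and most non-classical monocyte-like cells at the bottom.

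Myeloid-like cells with a Ciita read were higher in class II, across a mix of subsets. The 55 cells with a Ciita read, 18 of them dendritic-like, had a median H2-Ab1 level of 684 CPM and the 215 without one, 16 of them dendritic-like, 8.32 CPM. Within the dendritic-like cells the medians of H2-Ab1 were 2832 CPM with and 1802 CPM without a Ciita read, at median depths of 387934 and 305524 reads. The cells with a read were also read more deeply, at a median of 310704 against 238405 reads. Ctss did not follow, with medians of 1724 and 1972 CPM.

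Endothelial-like cells, the most numerous class, held the members at levels far below those of B-like cells. In IgAN Cd74 was 76.3 CPM (75.3 to 77.3), against a Control level of 48.2 (47.2 to 49.3). The 6 IgAN plates ran from 10.4 (plate 313) through a median of 60.4 to 304 CPM (plate 325) for Cd74. The Control plates 314, 317, 321 and 326 lay close together at 36.8, 42.8, 63.5 and 57.1. Control thus lay inside an IgAN range that spans more than an order of magnitude, and the median cell ran the other way from the sum, at 13.8 CPM of Cd74 in IgAN and 45.3 in Control.

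The remaining members were also nominally higher in the IgAN sum. H2-Aa was 22.3 and 11.8 CPM, H2-Ab1 20.8 and 12.8, H2-Eb1 26.3 and 16.4, H2-DMa 8.36 and 2.45, H2-DMb1 3.36 and 0.702, Ciita 1.07 and 0.919, and Ctss 22.5 and 4.98 in IgAN and Control. Ctss differed most, with a log2 difference of 1.98, though IgAN plates 313 and 316, at 4.47 and 3.31 CPM, lay within or below the Control range of 3.53 to 6.44. The median of the 8 log2 differences was 0.76 against 0.02 over all genes measured. None of the 5 members measured by the rule met it, against 1.65% of genes (0.908% as higher and 0.745% as lower). Without plate 325 IgAN H2-Aa was 13.3 CPM and H2-Eb1 16.5, and the median was 0.15, and without plate 313 it was 1.00.

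Few cells carried much of the IgAN endothelial-like total. All 3 chains reached 100 CPM in 21 of 1125 IgAN cells (1.87%, 1.16% to 2.84%), 15 of them on plate 325 and 6 on plate 322, and in 1 of 621 Control cells (0.161%, up to 0.894%). Those 21 cells held 43.9% of all H2-Ab1 reads of the IgAN class. The leukocyte markers are the B, myeloid and T or NK class markers together with Ptprc, Coro1a, Laptm5, Cd52, Cd53 and Rac2. Their sum, which includes Cd79a and Lyz2, had a median of 932 CPM in the 21 cells against 111 in the other 1104. Cd79a was at 100 CPM or more in 8 of the 21 and in 0 of the rest, and Lyz2 in 6 of the 21 and in 139 of the rest. A Ciita read was found in 5 of the 21 and in 80 of the rest. In 1 of the 21, leukocyte markers were under 100 CPM. Leukocyte transcripts thus moved with class II in these wells, and their part in the level was not tested. Among the 509 IgAN and 176 Control endothelial-like cells under 100 CPM of those markers, a set chosen after seeing the data, the median of the 8 log2 differences was 0.35.

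**Figure D4:**
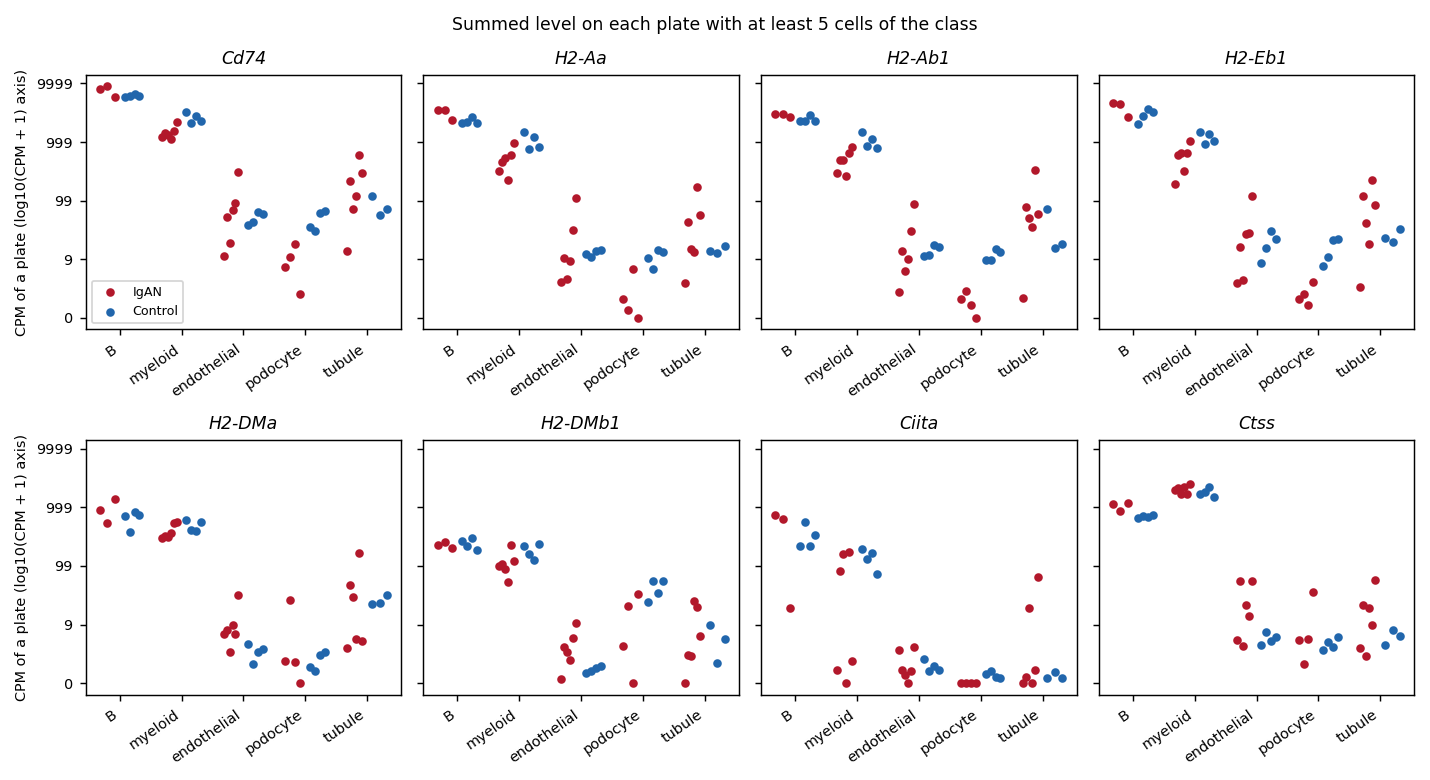
Level of each member on each plate with at least 5 cells of the class, as CPM of summed reads on a log10(CPM + 1) axis, each point being 1 plate (IgAN red, Control blue). The endothelial-like Control plates lie between 36.8 and 63.5 CPM of Cd74, while the IgAN plates run from 10.4 to 304.

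Podocyte-like cells, the epithelial cells of the filtration slit, were lower in IgAN in all chains and in Cd74. In IgAN Cd74 was 12.1 CPM (10.2 to 14.3), and the Control level was 46.9 (44.9 to 49.0). The IgAN plates 313 and 316, the only ones with 10 such cells, gave 6.36 and 9.93 CPM, and the Control plates 314, 317, 321 and 326 gave 34.5, 29.7, 61.1 and 65.4. H2-Ab1 was 2.11 against 10.5 CPM, H2-Aa 2.63 against 10.3 (1.56 in IgAN without plate 322) and H2-Eb1 3.86 against 13.9. Cd74, H2-Aa, H2-Ab1, H2-Eb1 and H2-DMb1 were measured by the rule, and all of them met it as lower. Over all genes, 5.91% met it in that direction and 3.77% in the other. H2-Aa, H2-Ab1 and H2-Eb1 reached the minimum of 10 CPM only in Control, the group where they were higher. The filter thus favours members that are lower in IgAN here, and the count is a description only. Counting plates with 5 cells left Cd74, H2-Ab1 and H2-Eb1, and leaving out plate 321 or 326 left Cd74, H2-Eb1 and H2-DMb1. In the 26 IgAN and 50 Control cells under 100 CPM of leukocyte markers, Cd74 and H2-DMb1 met it, where only 1 IgAN plate was left and 13.3% of all genes met it as lower, and with a minimum of 50 CPM no member passed the filter. H2-DMa (6.85 against 1.44 CPM, and 1.25 without plate 316), Ctss (5.71 against 3.81) and Ciita (0 against 0.388) were below the minimum. Ciita had no read in 42 IgAN podocyte-like cells, and a count of 0 allows up to 3 of the 42, a share of cells with a read of up to 7.14%.

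The podocyte-like levels were set beside all cells of the same plate. In Control, the podocyte-like level was 7.01% of the plate mean for Cd74, 4.16% for H2-Aa, 4.11% for H2-Ab1, 4.41% for H2-Eb1, 1.46% for H2-DMa, 1.21% for Ciita and 1.87% for Ctss. B-cell genes that podocytes should lack gave 3.53% for Cd79a, 2.35% for Cd79b, 3.10% for Ighm and 2.50% for Ms4a1. The myeloid genes Lyz2 and Lst1 gave 8.44% and 6.64%. In this mean over plates Cd74 and the chains thus stood above the B-cell genes, but Lyz2 stood above Cd74, and Lst1 above the chains. On single plates a chain could lie below a B-cell gene, as on plate 326 with H2-Ab1 at 4.77% and Cd79a at 5.00%. All were small fractions of the plate, and what part of the class II reads came from other cells was not tested. The lower level of Cd74 and the chains in IgAN goes with lower Cd79a in the same class, at 0.790 against 8.89 CPM. The myeloid genes there did not share 1 direction: Lyz2 was 23.3 against 25.7 CPM, Lst1 6.15 against 2.71 and Csf1r 22.7 against 14.6.

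H2-DMb1 was the exception. Its Control podocyte-like level was 114% of the plate mean, with 67.8%, 76.5%, 134% and 177% on the 4 plates. H2-DMb1 stood at 40.8 CPM (39.0 to 42.8) in Control, at 23.4, 53.6, 33.3 and 53.7 on plates 314, 317, 321 and 326, and at 10.4 (8.58 to 12.4) in IgAN, where plates 313 and 316 gave 3.32 and 19.5. H2-DMb1 reached 10 CPM in 45 of 146 Control and 5 of 42 IgAN podocyte-like cells.

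Podocyte-like cells with H2-DMb1 mostly had H2-DMb2 and mostly lacked H2-DMa. Among the 45 Control cells, the median H2-DMb1 level was 102 CPM and the median H2-DMa level 0 CPM, with 1 cell at 10 CPM of H2-DMa. Their neighbour gene's transcript H2-DMb2, a second DM beta chain, had a median of 65.0 CPM and reached 10 CPM in 43 of the 45, against 9 of the other 101 Control cells. All 5 IgAN cells with H2-DMb1 also had H2-DMb2, and 0 of them had H2-DMa. Cd74 medians were 52.2 CPM with and 41.2 CPM without H2-DMb1, and those of leukocyte markers 147 and 132 CPM. The cells with H2-DMb1 were thus close to the others in these genes, though they were deeper, at a median of 315656 against 268143 reads. H2-DMb1 shares 22.7% of its 50-base windows with H2-DMb2, so reads of the 2 genes may have been split between them, and how such reads were counted is not given in the sources used here.

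**Figure D5:**
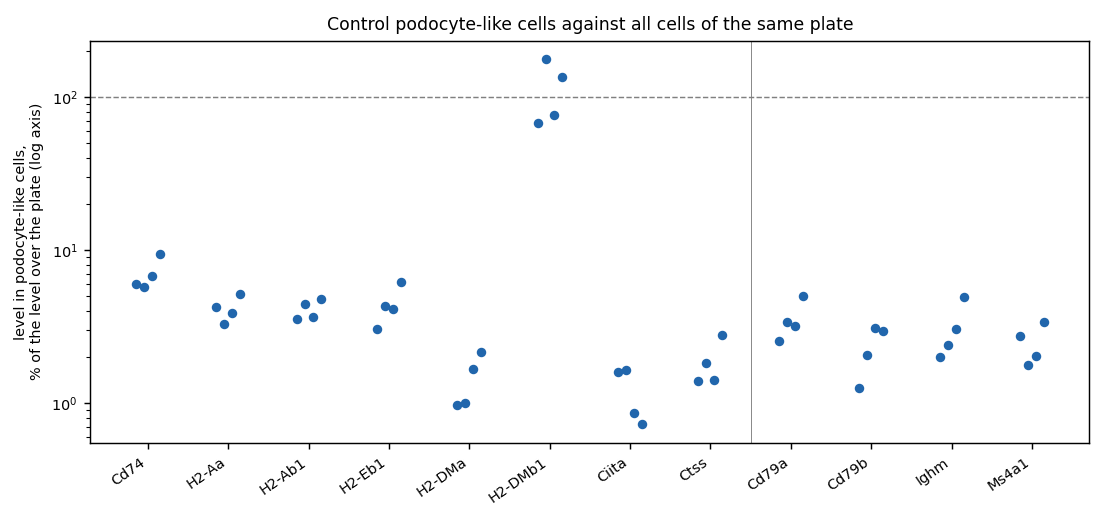
Podocyte-like level of each member (left of the line) and of 4 B-cell genes (right) as a percentage of the level over all cells of the same plate, on a logarithmic axis, each point being 1 Control plate and the dashed line 100%. Cd74 lies above the 4 B-cell genes on each plate, at 5.77% to 9.41%, the chains lie at 3.05% to 6.19%, and H2-DMb1 lies between 67.8% and 177%.

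Tubule-like cells were higher in the IgAN sum for all 8 members. In IgAN Cd74 was 234 CPM (229 to 240), and in Control it was 76.1 (72.8 to 79.5). The 6 IgAN plates ran from 12.9 (plate 313) through a median of 167 to 604 CPM (plate 322) for Cd74, and the Control plates with 10 cells (314, 317 and 321) gave 117, 55.2 and 71.4. H2-Ab1 was 95.2 against 26.7 CPM, H2-Eb1 95.6 against 26.8 and H2-Aa 51.1 against 14.4, again with overlapping plates. Of the other members, H2-DMa was 46.4 against 26.4 CPM, H2-DMb1 7.95 against 4.41 and Ctss 20.3 against 5.57. Without plate 322, which holds 10 of the 145 IgAN cells, H2-Ab1 was 58.2 CPM, H2-Aa 32.7 and H2-DMa 27.2, and without Control plate 314 the Control level of H2-Ab1 was 16.8. The median of the 8 log2 differences was 1.73 against 0.10 over all genes measured, while 0 of the 6 members measured met the size rule, against 2.13% of genes (0.910% as higher). As in endothelial-like cells, the median cell ran the other way, at 26.5 CPM of Cd74 in IgAN and 67.7 in Control.

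Ciita, the coactivator, had the largest log2 difference of the 8 members in tubule-like cells, at 3.24, and it rested mainly on 2 plates. In IgAN it was 11.3 CPM (10.1 to 12.5), and the Control level was 0.301 (0.130 to 0.594). Most of its reads came from plates 325 and 316, at 62.5 and 18.4 CPM, while the other 4 IgAN plates were under 1 CPM, and without plate 325 it was 3.06 CPM. A Ciita read was found in 8.97% of IgAN and 5.43% of Control tubule-like cells (4.86% to 14.8% and 2.21% to 10.9%, counting error only), and in 2.76% and 2.33% after thinning to 50000 reads.

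The higher sums came from proximal tubule-like cells, which reabsorb filtered protein. There Cd74 was 330 CPM in 96 IgAN and 82.1 in 85 Control cells, and H2-Ab1 132 and 31.4. Without the 6 cells of plate 322, Cd74 was 245 CPM in IgAN, H2-Ab1 77.3, H2-Aa 44.5 (71.5 with them) and H2-DMa 38.5 (66.6 with them, 36.4 in Control), and without Control plate 314 the Control level of H2-Ab1 was 17.2. Without plate 325, IgAN Ciita was 4.33 CPM (16.0 with it) and Ctss 13.8 (23.2 with it). The IgAN plates with 10 such cells (315, 316, 318 and 325) gave 287, 82.8, 190 and 420 CPM for Cd74, and the Control plates (314, 317 and 321) 136, 58.3 and 74.1. Of these, only plate 316 fell within the Control range, and no member met the size rule, against 5.66% of genes (3.33% as higher). Cd74 and H2-Ab1 met it as higher without plate 314, Cd74 and Ctss without plate 316, H2-Eb1 without plate 318 and H2-Aa without plate 321. How many of all genes met it without these plates was not counted, so these calls are not read as results about the members. H2-Ab1 was at 100 CPM or more in 16 of 96 IgAN and 3 of 85 Control cells. The 3 chains together reached that level in 7 of 96 and 1 of 85.

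Those 7 IgAN cells held 46.2% of the class's H2-Ab1 reads. Their leukocyte markers had a median of 875 CPM, against 108 in the other 89 cells. Cd79a was at 100 CPM or more in 1 of the 7 and 0 of the 89, Lyz2 in 1 and 19, a Ciita read was found in 2 and 7, and 2 and 10 were near-ties between classes. Cd79a amounted to 4.06% of H2-Ab1 in IgAN proximal tubule-like cells and 35.7% in Control, and it was also lower in IgAN over all cells, at 38.6% and 93.7%, and in endothelial-like cells, at 21.6% and 63.9%. In the 58 IgAN and 29 Control tubule-like cells under 100 CPM of leukocyte markers, the median log2 difference was 0.85. There 2 members, H2-Eb1 and Ciita, met the size rule as higher, with 3 IgAN and 2 Control plates left and 9.36% of all genes meeting it in that direction.

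Distal tubule-like cells, 49 in IgAN and 44 in Control, did not share the direction. Cd74 was 24.4 CPM in IgAN and 61.5 in Control, and H2-Eb1 7.58 and 19.7. These 2 members met the size rule as lower and Ctss (13.9 against 6.28 CPM) as higher, in a class where 7.21% and 14.8% of all genes did so. H2-Eb1 reached the minimum of 10 CPM only in Control, and Ctss only in IgAN. Only 2 IgAN and 2 Control plates held 10 or more distal tubule-like cells.

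Other genes of the pathway were read from 6 lists of 45 names: further class II chains and editors, endosomal proteases, promoter-binding factors, the interferon gamma signal towards Ciita, lineage regulators of Ciita, and partners at the surface. Few met the size rule beside the members. In B-like cells 1 of the 40 measured was higher and 1 lower in IgAN, the lower being Ifngr2, a chain of the interferon gamma receptor (45.7 against 143 CPM). In myeloid-like cells 0 of 41 were higher and 1 lower, the costimulator Icosl (12.0 against 60.1 CPM). In endothelial-like cells 0 of 30 were higher and 1 lower, the chemokine receptor Cxcr4 (8.85 against 22.6 CPM). In podocyte-like cells 2 of 23 were higher, Ifngr2 (33.1 against 11.4 CPM) and the repressor Bcl6 (105 against 31.4 CPM), and 1 lower, H2-DMb2 (8.61 against 27.7 CPM). Over all genes, 1.31% met the rule as higher and 7.62% as lower in B-like cells, and 3.77% and 5.91% in podocyte-like cells. As lower, 0.414% did in myeloid-like and 0.745% in endothelial-like cells.

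Tubule-like cells had none of 28 past the rule. In them 7 of the 7 measured genes of the interferon list were nominally higher in IgAN, with a median log2 difference of 1.57, and so were 5 of 5 of the surface list, with a median of 1.27, where 55.7% of all measured genes were. In endothelial-like cells 7 of 7 of the interferon list were nominally higher too, with a median of 0.35, beside 52.1% of all measured genes. The 2 most abundant interferon-list genes in tubule-like cells were Jak1, a receptor kinase (110 against 99.8 CPM), and Ifngr1, the ligand-binding receptor chain (75.8 against 24.6 CPM). In proximal tubule-like cells Irf1, which drives the inducible Ciita promoter, met the rule as higher at 58.6 against 6.51 CPM, and so did Cd44, the signalling partner of Cd74, at 16.1 against 1.76 CPM. In that class 3.33% of all genes met it as higher. None of the 7 other endosomal proteins listed met the rule in myeloid-like cells: the most abundant, the proteases Ctsb and Ctsz, were at 2382 against 2161 CPM and 822 against 1014 CPM. Ifng itself, the inducer of Ciita in many cells, was 367 CPM in 86 IgAN and 87.1 CPM in 128 Control T- or NK-like cells and met the rule as higher, which 0.866% of genes did there.

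Genes outside the 8 members were ranked by how closely their levels ran with the mean of the 8, over 62 units. Each unit is a class on a plate with at least 10 cells. Among the 10 highest Pearson correlations on log2(CPM + 1) were Mir5107 (0.98), A230006K03Rik (0.96), AL844846.1 (0.95), Mup-ps16 (0.94), Rnase6 (0.94), Dok3 (0.94), Pld4 (0.93), Btk (0.93) and Wdfy4 (0.92). Mir5107 lies inside Cd74 (chr18:60803848-60812652) on the same strand, so its reads and those of Cd74 cannot be told apart. The units share plates and the classes differ in many genes, so these values are descriptions. Cd74 itself had 0.98 and H2-DMb1, the member with the least like pattern, 0.84. Over 1746 single endothelial-like cells, the chains ran most like Cd74, by the smaller of the r in the 2 groups. That r was 0.71 for H2-Ab1, 0.70 for H2-Aa and 0.70 for H2-Eb1. Outside the 8 members, the genes most like Cd74 included Mir5107 (0.51), Ighm (0.48), Cd79a (0.40), Igkc (0.37), Coro1a (0.37), H2-DMb2 (0.34), Ccr7 (0.33), Laptm5 (0.31) and Rac2 (0.31). Apart from Mir5107 and H2-DMb2, these genes outside the members are genes of B cells or of leukocytes in general. Endothelial-like Cd74 thus varied from well to well with the chains and, less closely, with leukocyte transcripts.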

How the data were processed

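Raw counts of reads per gene and cell were deposited by the authors as 1 table. Per the submitters' processing notes, the tools were featureCounts, Subread 1.4.6-p5, SAMtools 0.1.18 and TopHat2 2.1.1, with build GRCm38 (mm10). Not given in the sources used here are the annotation, the strand setting and the treatment of duplicate and multiply mapped reads. Ciita, H2-Eb1 and H2-DMa overlap antisense genes, and Ctss a pseudogene, so a part of their reads may be uncertain.

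Cells were taken to IgAN or Control from their treatment label. Marker CPM were summed per class, divided by their 99.5th percentile over all cells, and the highest score named the class (minimum 0.1, which 9 cells missed). Cells whose second score reached 0.5 of the best were called mixed and kept. Doublets were not otherwise removed. Summed reads per class gave CPM, with 1 CPM added before log2. No barcode is shared, since each cell is 1 well. A total of 816735155 reads was used.

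All 8 members were named in each of the 5 main classes. From the lists, genes past the size rule were named, with the 2 most abundant of a list described, and likeness ranked 10 genes. A few genes that these rules pick are not reported here. Members and lists were chosen with earlier results of these data known. The rule of size was first tested on simulated data. Alternatives covered the gate, Leiden clusters, scaling, pseudocount, filters, limits, thinning to 50000 reads and leaving out each plate. Python 3.11.15, numpy 2.4.6, pandas 2.3.3, scipy 1.17.1 and scanpy 1.11.5 were used.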

Additional observations from a re-analysis of the deposited data

Results flagged for a closer look

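Of 56 sets of plates (a member, a class and a group), 11 had a plate standing apart from the others by Dixon's criterion, which chance alone gives in about 1 in 20 sets, and the sets share plates. In Control B-like cells, H2-Ab1 was 2845 CPM on plate 321 against 2307 on the next plate. In IgAN endothelial-like cells plate 325 stood apart for 5 members: Cd74 at 303.9 CPM (next plate 88.89), H2-Aa at 109.9 (30.08), H2-Ab1 at 85.96 (29.84), H2-Eb1 at 120.9 (26.83) and H2-DMa at 30.88 (8.742). In IgAN tubule-like cells plate 322, with 10 such cells, stood apart for H2-Aa at 167.1 CPM (56.47), H2-Ab1 at 328.3 (78.06) and H2-DMa at 167.8 (46.92). Plate 325 stood apart in the same class for Ciita at 62.53 CPM (18.40) and Ctss at 56.93 (20.93).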

How the results depend on the processing

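Of 384 recomputed log2 differences of single members under alternatives, 379 stayed within 1 SD between plates of the reported value and 5 moved. This SD is that of plate levels within a group. Where plates differ widely, a large shift therefore still counts as within it. A change of sign was counted as a reversal only for members that met the size rule, and 0 reversed. Signs did change for some other members. B-like Cd74 went from 0.08 to -0.03 without plate 316, and B-like H2-DMb1 from 0.13 to -0.09 without plate 322. Endothelial-like Ciita went from 0.11 to -0.14 without plate 313. The member counts and the cells low in leukocyte markers were chosen after seeing the data. The median log2 difference over members moved in podocyte-like cells with 5 CPM added, to -1.05. Leaving out 1 plate gave medians of 0.18 to 0.38 (B-like), -1.07 to -0.69 (myeloid-like), 0.15 to 1.00 (endothelial-like), -1.86 to -1.33 (podocyte-like) and 1.16 to 1.89 (tubule-like). Members meeting the size rule were 0 to 3 in myeloid-like and 3 to 5 in podocyte-like cells when 1 plate was left out. Leaving out 1 plate, also chosen after seeing the data for the subsets, gave 2 to 5 members (4 reported) in non-classical monocyte-like and 0 to 2 (0 reported) in proximal tubule-like cells. For these subsets the share of all genes past the rule was not counted with a plate left out. Members meeting it were 1 (H2-DMb1) in myeloid-like cells with the stricter gate. In podocyte-like cells they were 0 at 50 CPM, 3 with plates of 5 cells and 2 in cells low in leukocyte markers, and in tubule-like cells low in those markers they were 2. Genes meeting the rule numbered 799 in B-like (377 at 50 CPM; 840 to 1459 without 1 plate), 113 in myeloid-like (196 unfiltered, 59 at 50 CPM, 75 at a log2 limit of 1.5; 156 to 252) and 162 in endothelial-like cells (264, 76 and 71; 161 to 240). They numbered 929 in podocyte-like cells (1539 without mixed cells, 404 at 50 CPM, 458 with plates of 5 cells, 576 at a limit of 1.5, 2338 in cells low in leukocyte markers; 968 to 1838 without 1 plate). In tubule-like cells they numbered 204 (424 with the stricter gate, 308 unfiltered, 103 at 50 CPM, 1499 in cells low in leukocyte markers; 204 to 540). The cause of these shifts was not tested. Thinned to 50000 reads, 91 of 120 shares of cells with a read moved, so shares depend on depth. Leiden clusters (21), named by the same marker scores, held 95.4% to 100% of each class. Those named tubule held 357 cells, against 274 by the gate. No paired analysis was possible because the labels give no replicate numbers shared by the groups.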

Other observations

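Parietal-like cells, which line Bowman's capsule and were marked by Cldn1, Pax2 and others, had H2-Ab1 out of step with its partner chain. H2-Ab1 was at 100 CPM or more in 25 of 80 IgAN and 12 of 25 Control parietal-like cells, and H2-Aa in 3 and 4. Summed H2-Ab1 was 153 CPM in IgAN and 297 in Control, above Cd74 at 94.4 and 260 CPM. Only 1 Control plate held 10 such cells, at 137.5 CPM of H2-Ab1 and 92.5 of Cd74. Both values lay inside the range of the 5 IgAN plates, 44.4 to 239.9 and 26.4 to 235.5 CPM. In IgAN 39 of the 80 cells, and in Control 3 of the 25, were near-ties with another class.

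T- or NK-like cells held Ctss at 168 CPM in IgAN and 157 in Control and H2-DMa at 34.2 and 55.8 CPM, beside Cd74 at 63.4 and 69.1 CPM.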
